A study of Mus musculus with 39 samples.

Results

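The ATP-binding cassette (ABC) transporters described here are the genes whose symbol in the array annotation begins with Abca to Abcg followed by a digit, without Abca1, Abca3 and Abcg1. The rule found 42 genes on 50 probes, out of 20868 gene probes on the array. Of these, 36 genes on 42 probes were tested, since their Cy5 signal exceeded that of the negative control spots in 4 or more arrays of some group, among 17560 probes kept in all. Abca4, Abca9, Abca15, Abcb5, Abcc10 and Abcc12 did not pass, nor did 1 of the 2 probes of Abca14 and of Abcb8.

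ABC proteins bind and hydrolyse ATP, and most use that energy to move a substrate across a membrane. The ABCB, ABCC and ABCG subfamilies hold the drug efflux pumps, which carry drugs, toxins and their glutathione, glucuronide or sulphate conjugates out of cells. In the lung such pumps are found in airway and alveolar epithelium, endothelium and macrophages, where inhaled compounds meet them. The ABCA subfamily mainly moves lipids, and most ABCD proteins carry fatty acids into peroxisomes. ABCE and ABCF proteins have no membrane spans and act in translation.

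The data are 39 lungs of male F1 mice of a C57BL/6 by CBA cross, 8 to 10 weeks old at the start, in 8 groups. On 5 days of each week, for 6 or 12 weeks, the exposed mice breathed the mainstream tobacco smoke (MTS) of 2 cigarettes, and sham mice were held in the restrainers without smoke. Both the 6 week and the 12 week smoke groups had a sham group of their own and were sampled at the end of exposure, or after a further 6 weeks without smoke (smoke and break, with a break sham group). Each group had 5 mice, and the 12 week smoke group had 4. RNA was taken from part of the left lung and holds all its cell types, so that a different share of a cell type and a different amount of RNA per cell cannot be told apart. Each lung (Cy5) was hybridized with a universal mouse reference RNA (Cy3) that all arrays share and in 1 dye orientation. Values are log2 ratios of lung to reference, so that 0 means equal signal and 1 a doubling of lung over reference; a fixed dye effect remains in the ratio but not in a difference between groups.

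Arrays differed in brightness, with a median Cy5 signal of 268 to 1532 and a ratio of signal to background of 2.20 to 8.94. The tissue markers were present: the median over the 5 alveolar type II markers, among them the surfactant protein gene Sftpc, ran from 2.05 to 4.87 over the arrays. As the check of the labels, Cyp1a1, the enzyme that tobacco smoke induces through the aryl hydrocarbon receptor, had log2 ratios of 5.07 to 8.06 on the 9 smoke arrays and 0.45 to 2.81 on 29 others. The array labelled 6 week sham m2 was at 6.46, within the range of the smoke arrays. It was kept under its label, and the 6 week and averaged results without it are given after those of the pumps and the other ABCB genes. The 6 week sham array m1 also stood apart, at the members described below. Each array carries a date label, and the sequence of those labels falls into 5 runs, of which the first 3 hold all 8 groups. What a run stands for is not given in the sources used here. Runs were a term in every fit.

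Levels in lung came first. Among the 42 tested probes, 9 were above the reference on all 39 arrays and 9 below it on all 39, which is 21.4% each, beside 18.5% and 16.5% of all kept probes. The median probe stood at -0.02, and that of all kept probes at 0.04. The highest was Abca8a, a lipid transporter of the ABCA6 group, with a mean of 2.69 and arrays from 0.67 to 4.32. Both probes of Abcd2, which carries very long chain fatty acids into peroxisomes, followed at 1.66 and 1.36. Abcc3, an exporter of conjugated organic anions at 1.10, Abcc9, a subunit of ATP-sensitive potassium channels at 1.08, and Abcc5, an exporter of cyclic nucleotides and nucleotide drugs at 1.02, came next. The lowest was the P-glycoprotein gene Abcb1b at -1.72, with arrays from -2.09 to -1.38, whereas its paralogue Abcb1a was at 0.56. Abcc1, the exporter of glutathione conjugates, was at -1.20 with all 39 arrays below the reference, and the translation factor Abcf2 was at -1.14. Of the 5 ABCF probes 4 were below the reference, as was Abce1, the ribosome recycling factor, at -0.82. These are ratios to a reference and do not rank the genes by the amount of their RNA in lung.

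**Figure D1:**
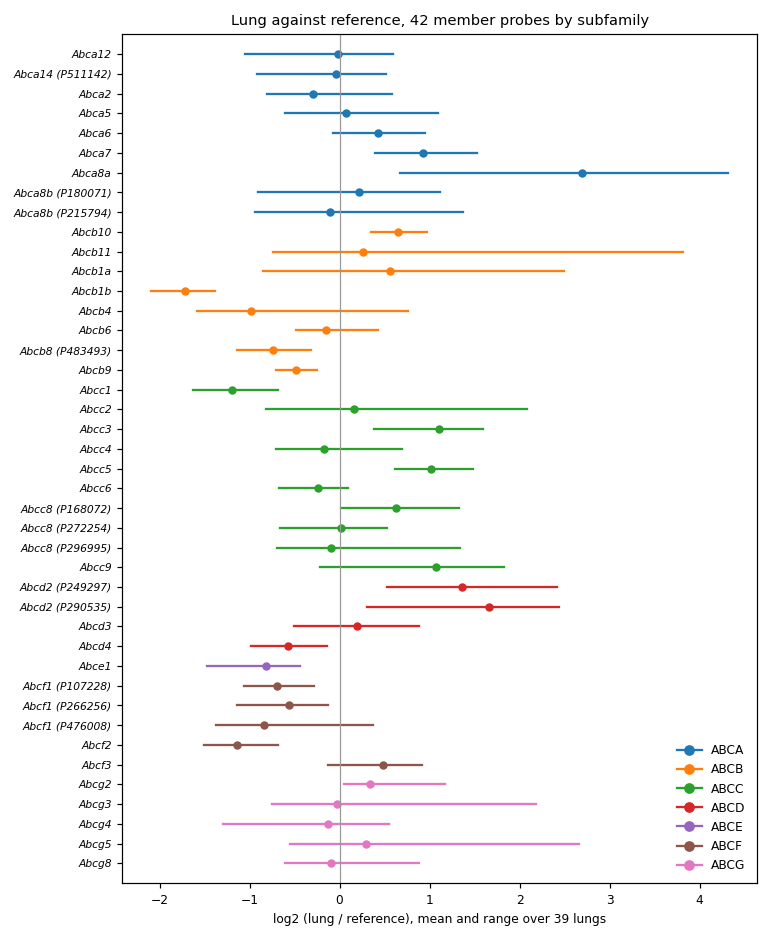
Mean log2 ratio of lung to reference (points) and the range over all 39 lungs (lines) for the 42 tested probes, coloured by subfamily. Abca8a and Abcd2 lie farthest to the right, and Abcb1b, Abcc1 and Abcf2 farthest to the left.

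Signal limited several members. Only 16 of the 50 probes (32%) were above the negative controls on all arrays, beside 42% of all gene probes. Among the efflux pumps, Abcb1b, Abcc1, Abcc3, Abcc5 and Abcg2 were above them on all 39 arrays, Abcc6 on 37, Abcc4 on 27, Abcb1a on 26 and Abcc2 on 18.

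The regulatory sequence of 3 members is shown because they carry the results below: Abcb9 and Abcc5 had the lowest p-values after smoke, and Abcb1a the lowest fitted value of a pump at 12 weeks, though it did not pass the test. Each run covers 250 bases before and 50 bases after the transcription start in RefSeq (build GRCm38.p6), 5′ to 3′ on the strand of the gene. Capitals mark matches to TGACNNNGC, the core of the antioxidant response element, and to GCGTG, the core of the element bound by the aryl hydrocarbon receptor, on either strand; the 2 motifs did not overlap in these windows.
Abcb9 (chr5:124095749-124096048, minus strand): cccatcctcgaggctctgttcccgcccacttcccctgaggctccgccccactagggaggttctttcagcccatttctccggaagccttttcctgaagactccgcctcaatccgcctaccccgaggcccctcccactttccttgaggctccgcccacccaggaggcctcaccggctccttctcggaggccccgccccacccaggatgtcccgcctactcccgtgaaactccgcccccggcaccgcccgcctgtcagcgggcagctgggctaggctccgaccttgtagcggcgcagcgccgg
Abcc5 (chr16:20426345-20426644, minus strand): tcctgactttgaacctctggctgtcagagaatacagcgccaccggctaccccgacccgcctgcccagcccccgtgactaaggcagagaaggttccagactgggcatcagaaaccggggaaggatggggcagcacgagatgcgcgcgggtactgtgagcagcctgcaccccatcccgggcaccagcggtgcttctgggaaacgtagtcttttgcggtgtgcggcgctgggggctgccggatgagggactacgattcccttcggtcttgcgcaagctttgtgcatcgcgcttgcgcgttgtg
Abcb1a (chr5:8566841-8567140, plus strand): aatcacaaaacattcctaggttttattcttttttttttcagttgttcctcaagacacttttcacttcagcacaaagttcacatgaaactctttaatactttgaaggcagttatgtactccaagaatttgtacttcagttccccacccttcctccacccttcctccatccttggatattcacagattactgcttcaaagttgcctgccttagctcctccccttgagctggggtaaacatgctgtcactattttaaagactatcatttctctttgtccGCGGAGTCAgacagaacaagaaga
The Abcb1a window held 1 match, GCGGAGTCA, which is TGACNNNGC read on the other strand, at bases 277 to 285. The windows of Abcb9 and Abcc5 held neither motif, which says only that these letters are not in these windows. RefSeq windows were found for 33 of the 42 members, 40 windows in all. TGACNNNGC was in 7 of the 40 (17.5%), beside 12.4% of all 32851 windows, and those 7 belong to Abca8b, Abcb1a, Abcc2, Abcc4 and Abcc10. GCGTG was in 13 of the 40 (32.5%), beside 32.4% of all. Of the 11 windows of 7 efflux pump genes, some of which have several, 6 (54.5%) held TGACNNNGC and 2 (18.2%) held GCGTG. The 6 belong to 4 of the 7 genes, Abcb1a, Abcc2, Abcc4 and Abcc10, since Abcc4 and Abcc10 count with 2 windows each. A share by gene was not made for all windows. Abcc10 is not a tested pump, and the tested pumps Abcc1, Abcc3 and Abcc6 had no window. A match is a stretch of letters and not a measured binding site.

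The first question was whether smoke changed the drug efflux pumps. None of the 9 tested pumps passed an adjusted p of 0.05 (limma, Benjamini-Hochberg over 17560 probes) after 6 or 12 weeks of MTS, nor did any other member. Over all kept probes 0.0626% were called at 6 weeks, 0.433% at 12 weeks and 1.22% for smoke averaged over both durations. At an unadjusted p under 0.05 the fit gave 5 of 42 member probes at 6 weeks, 4 at 12 weeks and 6 for the average, which is 11.9%, 9.52% and 14.3%, beside 8.41%, 9.37% and 12.2% of all kept probes. The median change of the pumps was -0.01 at 6 weeks and 0.11 at 12 weeks, and that of all kept probes was 0.01 at both. At 6 weeks 4 of 9 pumps had a value above 0, and at 12 weeks 6 of 9.

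Abcc5 had the lowest p among the pumps. After 12 weeks of MTS its log2 ratios were 1.24, 1.12, 1.02 and 1.47, against 0.97, 0.85, 0.62, 1.25 and 0.95 in the 12 week sham lungs. The groups overlapped through 1 sham lung at 1.25. The fitted difference was 0.34 (SE 0.12, 95% interval 0.10 to 0.58, adjusted p = 0.285), and within the 4 label runs that hold both groups it was above 0 in 4, from 0.27 to 0.53. Averaged over durations it was 0.26 (SE 0.08, adjusted p = 0.132). With the 6 week sham array m4 left out the average was 0.31 with an adjusted p of 0.0483, and with m1 and m2 both left out it was 0.15 with an adjusted p of 0.419. At 6 weeks alone the difference was 0.17 (SE 0.11), and it was -0.05 without m1 and m2.

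Abcg2, the breast cancer resistance protein, which exports many drugs and urate, was the other pump with an unadjusted p under 0.05 for the average. Its 6 week smoke lungs were at 0.25, 0.41, 0.24, 0.36 and 0.19, and the 6 week sham lungs at 1.17, 0.20, 0.22, 0.48 and 0.67. The value of 1.17 belongs to array m1 and was the highest of all 39. The difference was -0.26 (SE 0.12, adjusted p = 0.582), -0.10 without m1 (adjusted p = 0.924) and -0.34 without m2 (adjusted p = 0.349). At 12 weeks it was -0.11 (SE 0.13).

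The paralogues Abcb1a and Abcb1b, which together encode the P-glycoprotein of the mouse, gave different values. In the 12 week smoke lungs Abcb1a was at -0.85, -0.25, 0.31 and 0.47, and in the 12 week sham lungs at 1.40, 0.89, 0.23, 1.07 and 0.38. Its signal was above the negative controls in 2 of the 4 smoke lungs and 4 of the 5 sham lungs. The 2 lowest lungs of these groups were smoke lungs, and the other two lay among the sham lungs. The difference was -0.93 (SE 0.43, 95% interval -1.80 to -0.06, adjusted p = 0.489), and it was -0.01 (SE 0.40) at 6 weeks. The 12 week value ran from -1.18 to -0.52 over the alternatives, with -0.52 where the smoke lung at -0.85 was left out. Within the label runs it ran from -2.25 to 0.10 at 12 weeks, with 2 of 4 runs below 0. Abcb1b, which was above the negative controls on all arrays, differed by -0.07 (SE 0.12) at 6 weeks and 0.12 (SE 0.13) at 12 weeks. The probes of the pair were not tested for shared signal between the paralogues.

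The remaining pumps belong to ABCC. Abcc1 differed by 0.01 (SE 0.11) at 6 weeks and 0.15 (SE 0.12) at 12 weeks, and Abcc3 by 0.06 (SE 0.14) and 0.11 (SE 0.15). Abcc4, which exports cyclic nucleotides and prostanoids, differed by 0.23 (SE 0.21) and 0.01 (SE 0.22). Abcc2, the canalicular exporter of conjugates, differed by -0.28 (SE 0.25) at 6 weeks, where the sham array m1 was at 2.08, and by 0.10 without that array. For Abcc6, the gene of pseudoxanthoma elasticum, the difference was -0.17 (SE 0.12) at 6 weeks and 0.20 (SE 0.12) at 12 weeks. The difference between these changes was 0.37 (SE 0.17, adjusted p = 0.971), and it had the only unadjusted p under 0.05 among members for 12 against 6 weeks, where 4.86% of all kept probes had one and 0% were called. That count depended on the 6 week sham arrays: it was 3 without m2 (Abcb9, Abcb4 and Abcc6), 0 without m1 and 2 without both (Abcc5 and Abcc6).

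**Figure D2:**
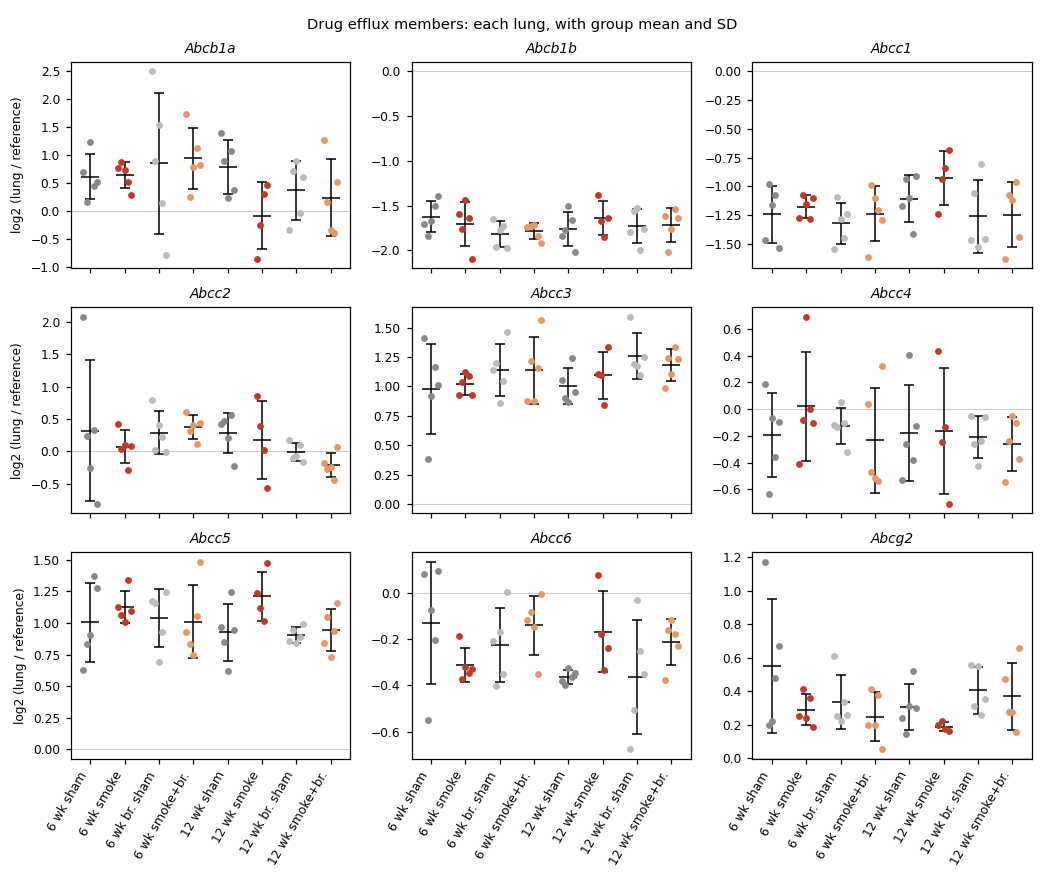
Log2 ratio of lung to reference for the 9 tested efflux pumps in each lung (points) of the 8 groups, with the group mean and SD (bars); red marks smoke, orange smoke and break, grey the sham groups. Smoke and sham lungs overlap in every panel at 6 and at 12 weeks, and single lungs stand apart, such as the 6 week sham lung at 2.08 for Abcc2 and at 1.17 for Abcg2.

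With all arrays kept, the 95% intervals bounded most of the fitted changes. The 6 week intervals hold the sham arrays m1 and m2 and were not counted without them. The 95% interval lay within a 2-fold change either way for 9 of 9 pumps at 6 weeks and 8 of 9 at 12 weeks, where the exception was Abcb1a. It lay within a 1.5-fold change for 6 of 9 and 7 of 9. Abcc2, Abcb1a and Abcc4 were above the negative controls on 18, 26 and 27 of 39 arrays, so that their intervals bound ratios of weak signals. Abcc2 passed the filter through the 6 week smoke group alone, with 4 arrays above the controls. For all 42 member probes the 2-fold bound held for 38 at each duration (90.5%, beside 95.6% and 94.6% of all kept probes). The 1.5-fold bound held for 26 at 6 weeks and 27 at 12 weeks (61.9% and 64.3%, beside 71.2% and 66.3% of all kept probes).

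Among the other ABCB genes, Abcb9, a lysosomal peptide transporter, had the lowest p of all members. Its 12 week smoke lungs were at -0.67, -0.71, -0.57 and -0.61, and its 12 week sham lungs at -0.37, -0.45, -0.43, -0.33 and -0.35. By the labels, all smoke lungs were below all sham lungs. The array labelled 6 week sham m2, whose Cyp1a1 was like that of the smoke arrays, was at -0.31, above these sham lungs. The 12 week comparison was not repeated with m2 in another group. Abcb9 was the 1 member probe of 42 without overlap at 12 weeks, beside 3.37% of all kept probes, and at 6 weeks there was no such member, beside 0.849%. The difference was -0.25 (SE 0.07, a 0.84-fold ratio, adjusted p = 0.165) and was below 0 in each of the 4 label runs, from -0.30 to -0.14. At 6 weeks the smoke lungs were at -0.65, -0.52, -0.54, -0.62 and -0.63 and the sham lungs at -0.70, -0.31, -0.41, -0.62 and -0.51, with a difference of -0.08 (SE 0.07). The average over durations was -0.16 (SE 0.05, adjusted p = 0.122). With only the 8758 probes above the negative controls on all arrays tested, the same average had an adjusted p of 0.0430. Of 52 alternative settings this was the only 1 in which it passed. Abcb8, a mitochondrial transporter, had an average of -0.09 (SE 0.08), and Abcb4 one of -0.19 (SE 0.15), or -0.0034 without the 6 week sham array m1.

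Some values at 6 weeks turned on array m1 of the sham group. It was the highest of all 39 arrays at 6 of 42 member probes: Abcb11, Abcb4, Abcc2, Abcg5, Abcg2 and Abcb8. No other array was the highest at more than 3 of 42, and the same count over all kept probes was not made. At Abcb8 array m1 was at -0.32, with the next array at -0.38. Abcb11, the bile salt export pump, was at 3.82 there, with a median of 0.03 on the other arrays, and Abcb4, which moves phosphatidylcholine into bile, was at 0.76 with a median of -1.04. Abcg5, which with Abcg8 exports sterols into bile and gut, was at 2.66 with a median of 0.23. On the same array, 8 of 12 measured hepatocyte genes (a list of 14 written after these values were seen) were the highest of all arrays. Their median there was 3.24, and the median of their medians on the other arrays 0.28; Cps1, a urea cycle enzyme, was at 5.78 and the apolipoprotein Apoa1 at 4.35. The 6 week break sham array m4 and the 12 week smoke and break array m3 came next, with hepatocyte medians of 2.82 and 2.61, and Abcb11 was at 2.29 and 1.55 there. Over the other arrays of the 6 week sham group the hepatocyte medians reached down to 0.03. The part of this signal in the member values was not tested. The 6 week difference of Abcb4 was -0.49 (SE 0.21, adjusted p = 0.519) with all arrays and -0.14 without m1, and that of Abcg5 -0.74 (SE 0.30, adjusted p = 0.473) and -0.24. Without m1, 2 member probes kept an unadjusted p under 0.05 at 6 weeks, those of Abcd2 and Abcc8, in place of 5. Without m1 and m2 none did, and 0 of 42 passed the adjusted threshold while 0.137% of all kept probes did.

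Without the sham array m2, whose Cyp1a1 was like that of the smoke arrays, no member passed either, and 0.188% of all kept probes were called at 6 weeks and 1.62% for the average. At an unadjusted p under 0.05 there were 6 of 42 member probes at 6 weeks, with Abcc6 beside the 5 found with all arrays, and 6 for the average. The 6 week values moved by a median of 0.05, most at Abcc3, which was at -0.11 (SE 0.11) without m2, and 6 of 42 turned in sign. Without m2 the 6 week value was -0.28 (SE 0.11, adjusted p = 0.398) for Abcc6, 0.09 (SE 0.11) for Abcc1, 0.12 (SE 0.21) for Abcc4, 0.09 (SE 0.11) for Abcc5, -0.12 (SE 0.12) for Abcb1b, -0.08 (SE 0.43) for Abcb1a and -0.27 (SE 0.27) for Abcc2. Among the other members it was -0.03 (SE 0.07) for Abcb9, -0.56 (SE 0.22) for Abcb4 and -0.85 (SE 0.32) for Abcg5. The averages moved by a median of 0.02 and 4 of 42 turned in sign; the lowest adjusted p was that of Abcb9 at 0.158.

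In ABCA, Abca7, which handles phospholipids in phagocytes, was at 0.67, 0.82, 0.64 and 0.62 in the 12 week smoke lungs and at 1.02, 0.89, 0.79, 1.05 and 1.19 in the sham lungs. The groups overlapped by 1 lung on each side. The difference was -0.25 (SE 0.12, adjusted p = 0.491). Abca8b had 2 tested probes with different results. The dimmer one, above the negative controls on 21 arrays, had an average change of 0.45 (SE 0.18, adjusted p = 0.279), and the brighter one, above them on 24, one of -0.03 (SE 0.22). Abca14 had an average of 0.14 (SE 0.13).

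Of the ABCD genes, Abcd2 likewise had 2 probes that differed. With the first (A_51_P249297) the 6 week smoke lungs were at 1.37, 2.15, 1.53, 2.10 and 2.16 and the sham lungs at 1.25, 1.22, 1.78, 1.00 and 1.16. One sham lung, at 1.78, lay within the smoke range. The difference was 0.61 (SE 0.24, adjusted p = 0.461), and the average over durations 0.49 (SE 0.18, adjusted p = 0.201). With the brighter probe (A_51_P290535) the 6 week smoke lungs were at 1.34, 2.37, 2.13, 0.59 and 1.33 and the sham lungs at 1.17, 0.77, 2.05, 2.28 and 0.68, and the fitted difference was -0.06 (SE 0.21). Its sign is opposite to that of the plain group means, 1.55 with smoke and 1.39 in sham, because the fit holds the label runs, between which this probe differed. The probes thus gave different values at 6 weeks. Abcd3, a peroxisomal carrier of branched chain fatty acids, and Abcd4, a lysosomal carrier of cobalamin, had averages of -0.09 (SE 0.16) and -0.11 (SE 0.09).

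No translation factor passed the test. The averages were 0.06 (SE 0.08) for Abce1, 0.12 (SE 0.08) for Abcf2, 0.02 (SE 0.09) for Abcf3 and 0.05 (SE 0.20) for the Abcf1 probe with the lowest p. That probe is the dimmest of Abcf1, above the negative controls on 28 of 39 arrays. The brighter Abcf1 probes were above them on all 39, and the lower average of that pair was -0.01. Among the other ABCC genes, the sulfonylurea receptor genes Abcc8 and Abcc9 had averages of 0.22 (SE 0.17) and -0.12 (SE 0.11) for 2 probes of Abcc8 and 0.08 (SE 0.20) for Abcc9. The first of the pair for Abcc8 is the brighter probe, and the second had a 6 week difference of -0.34 (SE 0.15, adjusted p = 0.549). The sterol transporters Abcg5, Abcg8 and Abcg4 had averages of -0.49 (SE 0.22, adjusted p = 0.348), -0.13 (SE 0.15) and -0.06 (SE 0.15). Without the 6 week sham array m1 the average of Abcg5 was -0.22 (SE 0.15, adjusted p = 0.643).

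By subfamily, 7 of 10 ABCC probes were above 0 for the average over durations, with a median of 0.08, and 7 of 8 ABCB probes and 5 of 5 ABCG probes were below 0, with medians of -0.13 and -0.13. For ABCA 4 of 9 were above 0, with a median of -0.01, for ABCD 1 of 4, and for ABCF 4 of 5. Over all 42 probes 18 were above 0 with a median of -0.01, and over all kept probes 9072 of 17560 with a median of 0.01. The 6 week sham array m1, the highest of all arrays at Abcb4, Abcb8, Abcb11, Abcg2, Abcg5 and Abcc2, is part of these values. Without it the average was -0.0034 for Abcb4 and -0.22 for Abcg5, and the subfamily counts were not repeated. The median standard error of a member was 0.13, and no test of a subfamily was made.

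**Figure D3:**
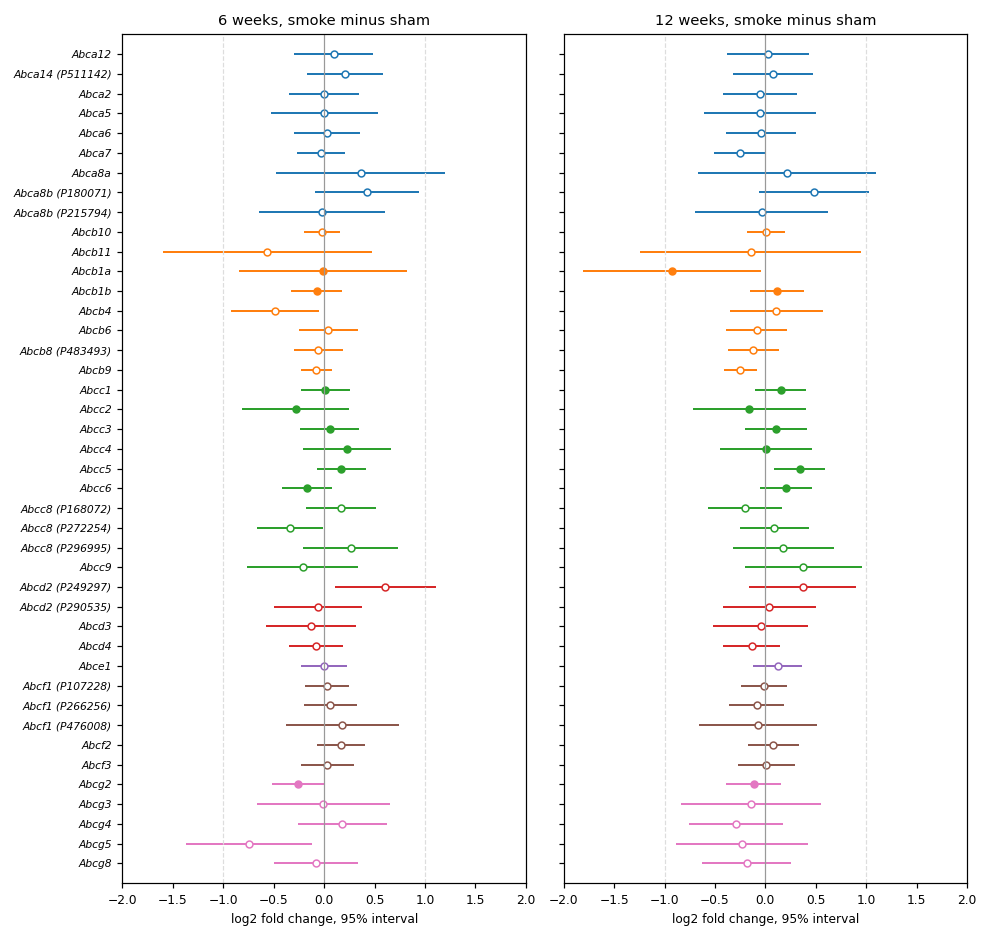
Log2 fold change of smoke over sham (points) with 95% intervals (lines) after 6 weeks (left) and 12 weeks (right) for the 42 tested probes; filled points are efflux pumps, colours mark subfamilies as in the plot of lung levels, and dashed lines mark a 2-fold change. Intervals that leave out 0 without adjustment number 5 at 6 weeks and 4 at 12 weeks, among them Abcb9 and Abcc5 on the right.

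The second question was what remained 6 weeks after the last exposure. No member passed the threshold in the 6 week or the 12 week smoke and break groups against their break sham groups (0% of all kept probes were called in either). At an unadjusted p under 0.05 there were 2 of 42 member probes after 6 weeks of smoke and 0 after 12 weeks, beside 4.32% and 6.43% of all kept probes. The 9 pumps lay between -0.10 and 0.09 in the first comparison and between -0.21 and 0.15 in the second, with medians of 0.03 and -0.04. Abcc5 was at -0.03 (SE 0.11) and 0.04 (SE 0.11), and Abcg2 at -0.09 (SE 0.12) and -0.04 (SE 0.12). No pump and no other member was without overlap between the groups, beside 0.49% and 0.757% of all kept probes.

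Abcb9 was again the member with the lowest p after 6 weeks of smoke and a break. The smoke and break lungs were at -0.39, -0.25, -0.38, -0.42 and -0.39 and the break sham lungs at -0.65, -0.59, -0.61, -0.54 and -0.41. One break sham lung reached into the range of the smoke and break lungs. The difference was 0.20 (SE 0.07, adjusted p = 0.999) and was above 0 in 5 of 5 label runs. After 12 weeks and a break it was 0.07 (SE 0.07, adjusted p = 0.893). The brighter Abcd2 probe differed by -0.50 (SE 0.21, adjusted p = 0.999) and -0.35 (SE 0.21, adjusted p = 0.799). With both durations averaged, 0% of all kept probes were called and 4 of 42 member probes had an unadjusted p under 0.05, beside 6.41% of all. Abca5, a lysosomal lipid transporter, was at -0.48 (SE 0.25) after 6 weeks and a break, and Abca6 and Abcg8 at -0.29 (SE 0.16) and 0.31 (SE 0.20) after 12 weeks and a break.

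Whether the change after the break differed from the change at the end of smoke was tested directly, averaged over durations. No member passed (0.125% of all kept probes did), and 5 of 42 had an unadjusted p under 0.05, beside 9.58% of all. Abcb9 came nearest with 0.29 (SE 0.07, 95% interval 0.15 to 0.44, adjusted p = 0.0797). It passed in 4 of 52 alternative settings. Its adjusted p was 0.0152 with array weights, 0.0261 with only probes above the negative controls on all arrays, 0.0314 without spots marked by the scanner software and 0.0393 without the 6 week sham arrays m1 and m2. With single arrays left out no member passed, and the lowest adjusted p of any member ran from 0.0541 to 0.149. For Abcc5 the difference was -0.25 (SE 0.11, adjusted p = 0.478), and -0.14 without m1 and m2. For the dimmer Abca8b probe it was -0.66 (SE 0.25, adjusted p = 0.353), and for the first Abcd2 probe -0.60 (SE 0.24, adjusted p = 0.395).

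**Figure D4:**
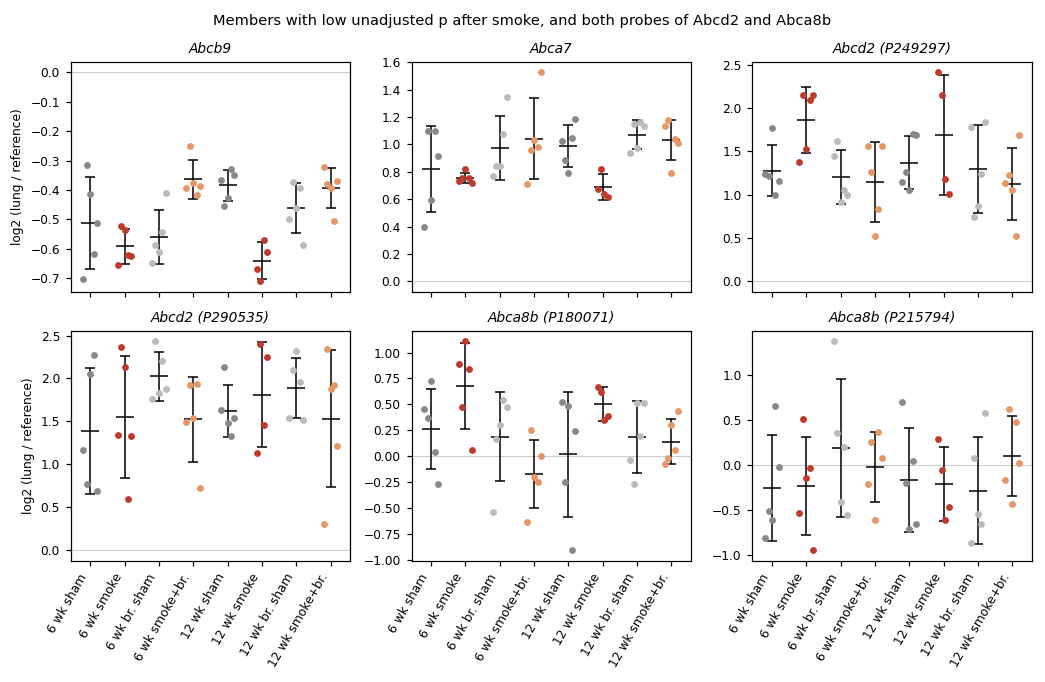
Log2 ratio of lung to reference in each lung (points) with group mean and SD (bars) for Abcb9, Abca7 and both probes of Abcd2 and of Abca8b, colours as in the plot of the efflux pumps. For Abcb9 the 4 lungs of the 12 week smoke group lie below all 5 of the 12 week sham group, and the probe pairs of Abcd2 and Abca8b do not show the same pattern.

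Break sham lungs were also compared with sham lungs, which differ in age and in time since restraint. No member passed (0.911% of all kept probes did). Abcc3 was higher by 0.22 (SE 0.10, adjusted p = 0.331) and the brighter Abcd2 probe by 0.34 (SE 0.15, adjusted p = 0.318). The test for any difference among the 8 groups called no member either, beside 3.74% of all kept probes; 5 of 42 had an unadjusted p under 0.05, beside 17.3% of all. The lowest adjusted p was that of Abcb9 at 0.0632. With single arrays left out the lowest of any member ran from 0.0324 (Abcb9, without 6 week sham m2) to 0.130.

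The label runs separated more probes than the groups did, among members and over all kept probes alike, where the groups called 3.74%. With the groups in the fit, 12 of 42 member probes differed between runs at an adjusted p under 0.05, beside 26.4% of all kept probes. The brighter Abcd2 probe had run means from 1.09 to 2.24 (adjusted p = 1.58e-05), Abca8a from 1.93 to 3.39 (adjusted p = 0.00165) and Abcc1 from -1.42 to -1.02 (adjusted p = 0.00351). Among the pumps Abcc5 (adjusted p = 0.0124) and Abcc2 (adjusted p = 0.0358) differed as well. The first Abcd2 probe had run means from 1.06 to 1.53 and was not among the 12.

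**Figure D5:**
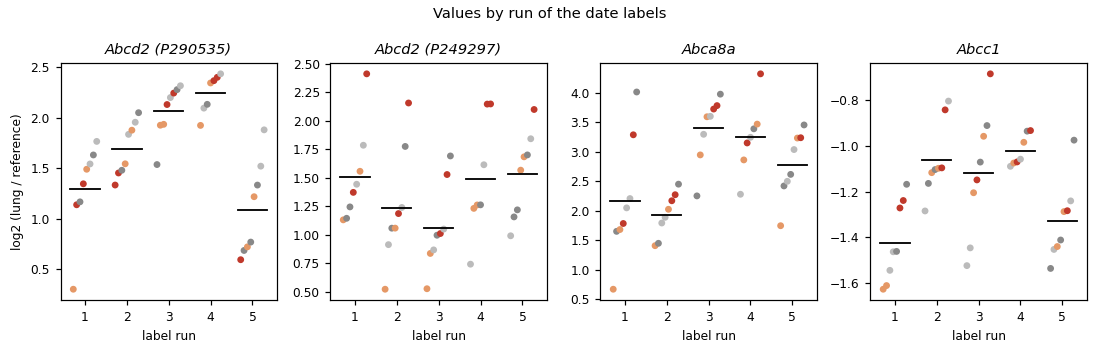
Log2 ratio of lung to reference by label run for both Abcd2 probes, Abca8a and Abcc1, with 1 point per lung in the colours of its group and a line at the run mean. Run means of the first panel span 1.09 to 2.24, and those of the second 1.06 to 1.53.

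Genes around the pumps were taken from further lists. The ABC proteins with other symbols, the chloride channel Cftr and the peptide transporters Tap1 and Tap2, had average changes after smoke of 0.24 (SE 0.28), -0.18 (SE 0.13) and -0.09 (SE 0.12), and 0 of 3 passed. Of 18 measured drug uptake carriers of the solute carrier families, 0 passed, 1 had an unadjusted p under 0.05 and 10 were above 0, with a median of 0.05. Of 12 measured regulators of efflux genes, Nfe2l2, which encodes the Nrf2 factor of the antioxidant response, rose by 0.88 (SE 0.19, adjusted p = 0.0109). No other regulator passed in either direction, and 8 of the 12 were above 0. The aryl hydrocarbon receptor gene Ahr was at 0.31 (SE 0.12, adjusted p = 0.280) and the pregnane X receptor gene Nr1i2 at -0.36 (SE 0.21, adjusted p = 0.511).

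Of 9 measured macrophage markers 5 passed with a rise for the average over durations (Ctss, Itgax, Lgals3, Cd14 and Marco). The median over the 9 was 0.54, beside 0.01 over all kept probes. None passed after the break, where the median was 0.05. The median over the 9 markers ran from -0.69 to -0.28 over the 6 week sham lungs and from -0.66 to 0.06 over the 6 week smoke lungs, and from -0.49 to -0.06 and -0.26 to -0.04 at 12 weeks. The part of these cells in the member values was not tested. Of the other cell type lists (neutrophils, T and B cells, alveolar type I and II cells, club, ciliated, endothelial, smooth muscle and erythroid cells) no gene passed in the same comparison. Their medians were 0.28 for alveolar type II, 0.21 for smooth muscle, 0.20 for alveolar type I, 0.19 for club and 0.16 for endothelium. The others were at 0.11 for neutrophils, 0.07 for erythroid, 0.05 for ciliated and -0.07 for T and B cells.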

How the data were processed

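Left lung RNA of 39 mice was compared with universal mouse reference RNA on 2-colour oligonucleotide arrays, 1 array per mouse. The authors scanned the arrays and deposited spot and local background intensities from ImaGene 5.5, with a spot mark of the software, and a table of log2 ratios after global LOWESS, which is used here as an alternative and correlated with the values below at 0.975 to 0.996 per array. Spot medians were corrected with normexp (offset 50) and normalized within arrays by loess with control spots at weight 0 (limma 3.58.1, R 4.3.3), and spots of a probe were averaged. Probes entered the tests where Cy5 exceeded the mean plus 3 SD of the negative control spots (5% trimmed at each end) in at least 4 arrays of a group, which kept 17560 of 20868. Symbols came from the platform annotation, in which 18235 probes have 1 symbol, 30 several and 2603 none.

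One limma fit held the 8 groups and the 5 label runs, with Benjamini-Hochberg adjustment over all kept probes and a threshold of 0.05. Its script was tested on simulated data. Mice were the replicates; nothing in the labels says whether they were housed or exposed together. The number of arrays limits the precision.

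Named are all efflux pumps, in each other subfamily the 3 probes with the lowest p for smoke averaged over durations, and the 3 lowest in each break comparison; Abcb11 and the hepatocyte genes were added after their values were seen. The members and lists were chosen with earlier results of these data known. An array that the authors left out of their 40 is not analysed here.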

Additional observations from a re-analysis of the deposited data

Results flagged for a closer look

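In 248 groups of 4 or 5 lungs at 31 named member probes, 8 groups had 1 lung far from the others by Dixon's ratio of gap to range; chance sets apart about 1 in 20 groups. The values that follow are log2 ratios. Abcg2 was at 0.61 in 1 break sham lung of the 6 week series, with the next at 0.33 (ratio 0.717). Abcb4 was at 0.76 in 6 week sham m1, with the next at -0.65 (ratio 0.753). Abcb9 was at -0.25 in 1 lung of the 6 week smoke and break group, with the next at -0.38 (ratio 0.753), and an Abcf1 probe was at 0.37 in another lung of that group, with the next at -0.79 (ratio 0.733). Abca6 was at 0.72 in 1 lung of the 12 week smoke group, with the next at 0.19 (ratio 0.851). Abca14 was at -0.42 in 1 lung of the 12 week break sham group, with the next at 0.29 (ratio 0.761), and Abcg4 at -1.30 in another, with the next at -0.31 (ratio 0.736). Abcd3 was at -0.25 in 1 lung of the 12 week smoke and break group, with the next at 0.25 (ratio 0.713). Among these 31 probes no lung was set apart at more than 1. Abcb11 was not among them, and in the 6 week sham group it was at 3.82 in m1, with the next at 0.58.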

How the results depend on the processing

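In 13 kinds of alternative, and in 1 chosen after seeing the data (6 week sham arrays m1 and m2 both left out), no member passed at 6 weeks, at 12 weeks, for 12 against 6 weeks, in either break comparison or for break sham against sham. For any difference among the 8 groups 1 member passed with spot and background means (Abca8b), and 1 (Abcb9) with probes above the negative controls on all arrays, the label run as a random block, array weights, marked spots left out, or m1 and m2 left out; with single arrays left out 0 to 1 passed. Abcb9 was the 1 that passed for break change against smoke change in 4 of these settings (filter on all arrays, array weights, marked spots, m1 and m2 out). For smoke averaged over durations 1 passed with the filter on all arrays (Abcb9), and 0 to 1 with single arrays left out (Abcc5 without 6 week sham m4). Beyond the construction of these settings, the cause was not tested.

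The directions of pump values near 0 were not stable. At 6 weeks Abcb1a was at 0.070 without background correction, 0.069 with the authors' log2 ratios, 0.028 without the label run and 0.0074 with it as a random block; Abcb1b was at 0.020 with median centring, Abcc1 at -0.0081 with the authors' log2 ratios, and Abcc3 at -0.0048 with array weights. At 12 weeks Abcc4 was at -0.068 without background correction, -0.036 with scaling between arrays, -0.071 with the authors' log2 ratios, -0.14 with array weights and -0.036 with only the groups compared, and Abcc3 at -0.0039 with median centring. For the average, Abcf3 was at -0.016 with the authors' log2 ratios; spot means gave -0.025 for Abcb1b, -0.058 for Abcc6, -0.11 for Abcf1 and 0.046 for Abcg4; array weights gave -0.030 for Abcb1b and -0.032 for Abcc6; and Abcc6 was at -0.031 without marked spots and -0.0033 with only the groups compared. Without m1 and m2, 6 week values were 0.21 for Abcc2, -0.0043 for Abcc3 and -0.046 for Abcc5, and averages -0.035 for Abcb1b, 0.036 for Abcc2, -0.0082 for Abcc6 and 0.025 for Abcg4.

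With single arrays left out the 6 week values ran from -0.10 to 0.19 for Abcb1a, -0.13 to 0.017 for Abcb1b, -0.047 to 0.093 for Abcc1, -0.53 to 0.10 for Abcc2 and -0.11 to 0.18 for Abcc3. The 12 week values ran from -0.26 to 0.023 for Abcc2 and -0.20 to 0.20 for Abcc4. The averages ran from -0.025 to 0.071 for Abcb1b, -0.031 to 0.055 for Abcc6, -0.035 to 0.22 for Abcc9, -0.023 to 0.16 for Abcf1, -0.040 to 0.061 for Abcf3 and -0.12 to 0.034 for Abcg4. All other directions of named values, 3505 of 3565 values in all settings, were kept. Median centring moved the median of all kept probes for 12 against 6 weeks from -0.01 to -0.11, and leaving out background correction, using spot means or using the authors' log2 ratios moved that of no comparison by as much. The 4 medians of the pumps stayed within the spread between lungs in each setting. Among the pumps, array signal limits Abcb1a, Abcc2 and Abcc4 most, since they were above the negative controls on 26, 18 and 27 of 39 arrays.

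No analysis paired by replicate number was possible because the labels give none that tie lungs across groups; lungs of 1 label run were matched through the run term of the reported fits.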
